A study of Mus musculus with 23 samples.

Results

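The mRNA levels of 10 genes of hedgehog and BMP signalling were followed in scraped colon mucosa of 23 mice. The genes were the secreted ligands Ihh, Bmp2, Bmp4 and Bmp7, the hedgehog receptor and response genes Ptch1, Gli1 and Hhip, the BMP antagonist Grem1, and the BMP response genes Id1 and Id3. They were 10 of 18820 genes measured by a probe set of their own, and each was read from the probe set annotated to it (matched by Entrez number) with the highest mean over the 23 arrays. The WT mice were 129S1/SvImJ and the PPARα KO mice were 129S4/SvJae-Pparatm1Gonz/J. These KO mice lack a functional Ppara gene from conception and in every cell, because the exon that codes for the ligand binding domain was disrupted. WT and KO mice therefore differ in substrain as well as in Ppara, and the effects of genotype and substrain cannot be told apart. All mice were male, 7 to 9 weeks old, individual animals with 1 array each, and all received a Westernized high fat diet with 40 energy% fat and a low calcium content of 30 µmol/g for 14 days. The heme groups had 0.5 µmol heme/g added to this diet. The control diet was given to 5 WT and 6 KO mice and the heme diet to 6 of each, since the array of 1 WT control mouse had been left out by the authors for its quality. Scrapings hold epithelium together with the mesenchyme beneath it, and in such bulk samples fewer cells of a type and less RNA per cell cannot be told apart. The comparisons asked how heme changed these signals in each genotype, and whether the change differed without PPARα.

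Hedgehog ligands are secreted proteins that bind Ptch1 on neighbouring cells. Binding frees the membrane protein Smo, which activates the Gli transcription factors. Ptch1, Gli1 and Hhip are themselves transcribed in response and serve as readouts of the pathway, and Ptch1 and Hhip also act as its brakes. In the colon, Indian hedgehog is made by the differentiated epithelium and is received mostly by the mesenchyme below. BMPs are ligands of the TGF-β family that act through receptor kinases and Smad proteins, restrain proliferation in the crypt, and switch on the Id genes. Grem1 is made by mesenchymal cells around the crypt base and binds BMPs before they reach their receptors.

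Stretches of 250 bases before the transcription start from RefSeq (build GRCm38.p6) were available for 6 of the 10 genes, namely Ihh, Ptch1, Hhip, Bmp4, Grem1 and Id3, and not for Gli1, Bmp2, Bmp7 and Id1. The windows of Ihh (chr1:74951673-74951922, minus strand) and Ptch1 (chr13:63565736-63565985, minus strand) are printed here because these are the ligand and its receptor, and both passed the test in KO mice. The Ptch1 window lies before 1 of that gene's annotated starts. Capitals mark the letters GGCGCC, a core of BMP response elements, and GTCTG, the Smad box, on either strand.
Ihh: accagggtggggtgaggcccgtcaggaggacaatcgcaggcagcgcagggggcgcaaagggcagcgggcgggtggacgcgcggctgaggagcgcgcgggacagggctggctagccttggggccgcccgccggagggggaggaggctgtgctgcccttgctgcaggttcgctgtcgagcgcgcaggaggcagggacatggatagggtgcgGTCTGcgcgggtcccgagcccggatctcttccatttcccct
Ptch1: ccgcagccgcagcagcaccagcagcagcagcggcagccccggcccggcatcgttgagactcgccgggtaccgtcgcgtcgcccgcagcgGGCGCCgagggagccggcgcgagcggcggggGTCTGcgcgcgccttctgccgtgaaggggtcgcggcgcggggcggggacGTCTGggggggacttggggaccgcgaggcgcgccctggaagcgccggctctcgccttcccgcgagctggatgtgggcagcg
GTCTG occurred 1 time in the Ihh window and 2 times in the Ptch1 window, and 42.2% of 32851 windows of the same length hold it. GGCGCC occurred 1 time in the Ptch1 window and in 9.59% of all windows. The Gli core GACCACCCA was not found on either strand in any of the 6 windows, nor with 1 mismatch. Of all windows 0.225% hold it exactly and 5.79% with up to 1 mismatch. The Id3 window had 2 copies of GTCTG, the Grem1 window had 1 copy each of GTCTG and GGCGCC, and the Hhip and Bmp4 windows had none of these letters. The GC content was 72% in the Ihh window and 78.4% in the Ptch1 window. The data hold no measure of factor binding, so these matches are a description of the sequence.

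The scrapings carried the markers of colonic epithelium. Epcam, an adhesion protein of epithelial cells, had a linear signal of 3532 to 4566 over the 23 arrays, and Cdx2, a transcription factor of intestinal epithelium, 688 to 1061. The mean log2 signal of 11 epithelial markers (the epithelium score) spanned only 11.39 to 11.57. Ppara was lower in every KO than in every WT mouse of the same diet. Mice on the control diet had a linear Ppara signal of 495 ± 50.9 if WT (SD, n = 5) and 310.3 ± 46.5 if KO, and heme-fed mice 415 ± 43.9 if WT and 200.03 ± 31.5 if KO (n = 6 each). Where the probes of Ppara lie relative to the disrupted exon was not determined. In its fibroblast and endothelium scores 1 library stood farthest from its group, and its immune score was low as well. WT control replicate 3 had a fibroblast score (mean log2 signal of 12 fibroblast markers) of 7.03, where the other WT control mice had 8.29 to 8.72 and the lowest of the other 22 arrays 7.49. Its endothelium score of 6.11 was likewise below the 7.15 to 7.32 of the others, as was its immune score of 6.44 below their 6.77 to 6.84, while its epithelium score of 11.50 and its smooth muscle score of 8.68 were not low. KO heme replicate 6 had the lowest fibroblast, endothelium and immune scores of its group, 7.49, 6.60 and 6.35. KO heme replicate 1 had an immune score of 7.65, where the other KO heme mice had at most 7.01. All 14 smooth muscle markers had a lower mean on heme in both genotypes. Their log2 differences were -1.67 to -0.24 in WT mice (median -1.14) and -0.77 to -0.03 in KO mice (median -0.50). By the rule for calls given below, 12 of 14 were called lower in WT mice and 1 of 14 in KO mice. None of them was called for a difference of the heme effect between genotypes. WT control replicates 1 and 2 had the highest smooth muscle scores, 9.52 and 9.86, and the next array, KO control replicate 2, had 8.81. The other WT control mice had 8.36 to 8.68, and WT heme mice 7.68 to 8.21. Calls of the 10 genes that changed when WT control replicate 3 was left out are given both ways, as are the other values marked as without it.

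Among the 10 genes heme lowered the ligands Ihh and Bmp2, and in KO mice also the hedgehog receptor Ptch1. The ligands Bmp4 and Bmp7 were not called. A gene was called when limma gave an adjusted p under 0.01 over all 18820 genes and its mean linear signal exceeded 20 in at least 1 group compared. By this rule 2 of the 10 genes fell in WT mice, Ihh and Bmp2, against 8.29% of all genes called lower. In KO mice 3 of 10 fell, Ihh, Bmp2 and Ptch1, against 9.2% of all genes. None of the 10 rose in either genotype, where 9.6% of all genes were called higher in WT and 9.23% in KO mice. At an unadjusted p under 0.05, 5 of the 10 differed in each genotype, as did 7002 genes in WT and 7139 genes in KO mice. The median log2 difference of the 10 genes was -0.10 in WT and -0.36 in KO mice, beside -0.01 for all genes in both. The median in WT mice was -0.39 without WT control replicate 3, when 7 of the 10 genes were below 0. Ihh and Bmp2 are among the genes that the study itself named in these mice, so their direction is not independent evidence.

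**Figure D1:**
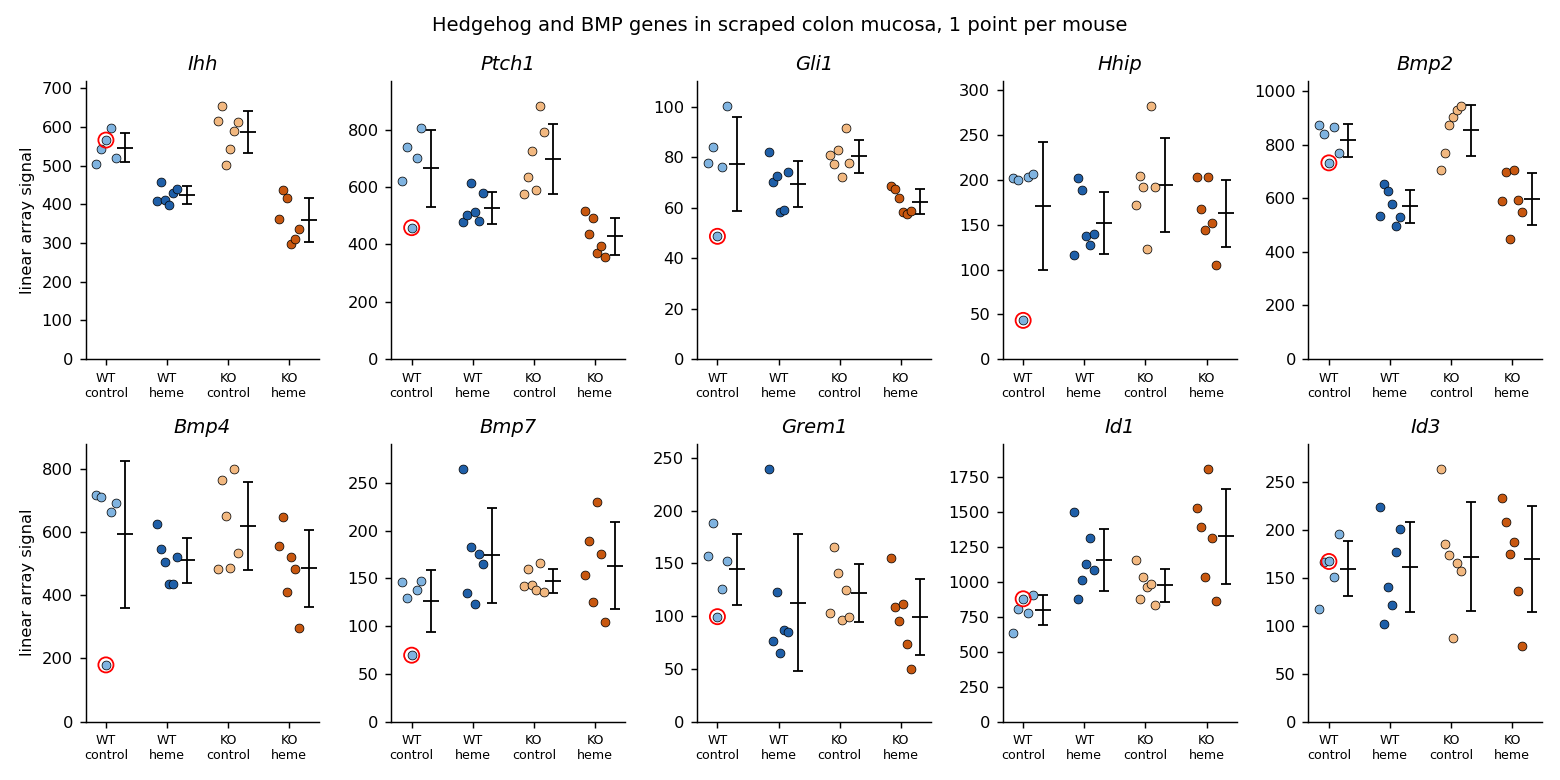
Linear array signal of the 10 genes on y axes that start at 0, with 1 point per mouse and the mean ± SD of each group beside the points (n = 5 WT control, 6 in each other group). WT control replicate 3 is ringed in red. The heme groups of Ihh and Bmp2 lie wholly below their control groups in both genotypes, and the ringed mouse is far below its group for Hhip and Bmp4.

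Ihh, the hedgehog ligand of the colonic epithelium, fell on heme in both genotypes. Its linear signal in the 5 WT control mice was 503.9, 543.0, 566.2, 597.7 and 519.9, and in the WT heme mice it ran from 398 over a median of 420.4 to 457. KO control mice had 503.0 to 654 with a median of 602, and KO heme mice 296 to 437 with a median of 349. All heme-fed mice of a genotype were thus below all of its control mice. The share of all genes whose diet groups separate in this way is not given here. Separation of groups is therefore only a description, for Ihh and for the genes below. The fall was 1.29-fold in WT mice (log2 -0.36, SE 0.0870, 95% interval -0.54 to -0.18, limma adjusted p = 0.00289) and 1.64-fold in KO mice (log2 -0.71, SE 0.0830, interval -0.89 to -0.54, adjusted p = 1.52e-06). The WT call was lost without WT control replicate 4 (log2 -0.33, adjusted p = 0.0109), which left 1 of the 10 genes called in WT mice, and the KO call held whichever single array was left out.

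Ptch1, the receptor that binds hedgehog ligands and is induced by them, fell in KO mice. The 5 WT control mice had a linear signal of 620.4, 739.1, 457.9, 699.0 and 805.0, where 457.9 belongs to WT control replicate 3, and the WT heme mice had 479 to 614 with a median of 506. KO control mice had 574 to 881 with a median of 679, and KO heme mice 357 to 517 with a median of 415. The KO groups did not overlap, whereas the WT groups did through that 1 mouse. The KO difference was 1.63-fold (log2 -0.70, SE 0.128, interval -0.97 to -0.44, limma adjusted p = 0.000216). In WT mice the log2 difference was -0.31 (SE 0.134, interval -0.59 to -0.04, adjusted p = 0.0885). Without WT control replicate 3 it was -0.44 with an adjusted p of 0.00943, which passed the test and made 3 of the 10 genes called in WT mice.

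Gli1, a transcription factor that is both effector and target of hedgehog signals, had a smaller difference. Its linear signal was 77.9, 84.3, 48.7, 76.4 and 100.3 in WT control mice and 58.2 to 82.2 (median 71.5) in WT heme mice, with overlap. In KO mice it was 72.4 to 91.6 (median 79.3) on control and 57.5 to 68.7 (median 61.3) on heme, with no overlap. The log2 difference was -0.13 in WT (SE 0.125, limma adjusted p = 0.499) and -0.37 in KO mice (SE 0.119, adjusted p = 0.0230), so neither passed. Without WT control replicate 3 it was -0.29 in WT mice (adjusted p = 0.0254), and the KO difference passed with an adjusted p of 0.0021, because the variance is shared over the 4 groups. Hhip, a cell-surface decoy that takes up hedgehog ligand, overlapped between diets in both genotypes. Its linear signal in WT control mice was 202.3, 199.6, 43.2, 203.6 and 207.1, and WT heme mice had 117 to 202 (median 139). KO control mice had 122 to 282 (median 192) and KO heme mice 105 to 204 (median 160.0). The log2 difference was 0.00 in WT (interval -0.64 to 0.64, adjusted p = 0.998) and -0.25 in KO mice (interval -0.86 to 0.36, adjusted p = 0.592). The WT control values without 43.2 lay within 199.6 to 207.1, and without that mouse the WT difference was -0.45 (adjusted p = 0.0921).

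Bmp2, a ligand of differentiated colonocytes, fell in both genotypes. The linear signal was 874.8, 838.8, 732.3, 865.6 and 770.0 in WT control mice and 496 to 655 (median 556) in WT heme mice. In KO mice it was 707 to 943 (median 889) on control and 448 to 705 (median 592) on heme. Every heme-fed mouse was below every control mouse of its genotype. The fall was 1.44-fold in WT mice (log2 -0.52, SE 0.103, interval -0.74 to -0.31, limma adjusted p = 0.000545) and 1.44-fold in KO mice (log2 -0.53, SE 0.0983, interval -0.73 to -0.32, adjusted p = 0.000294). Both calls held whichever single array was left out.

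Bmp4, a ligand made mostly by the mesenchyme and itself a hedgehog response gene, did not pass the test. WT control mice had a linear signal of 716.9, 709.7, 179.5, 661.6 and 692.5, and WT heme mice 435 to 624.6 (median 512). KO control mice had 483 to 798 (median 592) and KO heme mice 295 to 648 (median 501). With 179.5, from WT control replicate 3, the WT groups overlapped and the log2 difference was -0.07 (interval -0.63 to 0.50, limma adjusted p = 0.901). Without it the remaining WT control mice were all above the WT heme mice and the difference was -0.46 (adjusted p = 0.0527). The KO difference was -0.36 (interval -0.90 to 0.17, adjusted p = 0.331).

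Bmp7, a further BMP ligand, was on the other side of 0. WT control mice had a linear signal of 146.5, 129.5, 69.6, 137.8 and 146.9, and WT heme mice 124 to 264 (median 170.3). KO control mice had 136 to 166 (median 142) and KO heme mice 104 to 230.0 (median 165), so that diets overlapped in both genotypes. The log2 difference was 0.47 in WT (SE 0.203, limma adjusted p = 0.0884) and 0.10 in KO mice (SE 0.194, adjusted p = 0.757). Without WT control replicate 3, which had 69.6, the WT difference was 0.27 (adjusted p = 0.305). A second probe set of Bmp7 had group means of 11.5 to 12.6, below the signal minimum of 20, with log2 differences of 0.02 in WT and 0.06 in KO mice.

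Grem1, the antagonist, varied widely among mice of a group. Its linear signal was 157.1, 187.8, 99.5, 125.7 and 151.9 in WT control mice and 65.2 to 239 (median 85.9) in WT heme mice, and it was 96.2 to 165 (median 114) in KO control and 49.7 to 155 (median 102) in KO heme mice. Diets overlapped in both genotypes, and the highest value of all 23 mice came from a WT heme mouse. The log2 differences of -0.48 in WT (interval -1.06 to 0.11, limma adjusted p = 0.233) and -0.36 in KO mice (interval -0.91 to 0.20, adjusted p = 0.362) did not pass. They varied with single mice, from -0.35 without WT heme replicate 4 to -0.72 without WT heme replicate 1 (limma adjusted p = 0.0293), and from -0.18 without KO heme replicate 6 to -0.50 without KO heme replicate 1, and never passed.

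Id1, a helix-loop-helix inhibitor that BMP receptors induce through Smads, was higher on heme in most mice without passing the 0.01 threshold. WT control mice had a linear signal of 632.7, 809.3, 879.4, 777.2 and 903.8, and WT heme mice 881 to 1502 (median 1106). KO control mice had 834 to 1160 (median 976) and KO heme mice 862 to 1808 (median 1356). In WT mice 5 of 6 heme-fed animals were above all control animals, and in KO mice 4 of 6 were. The log2 difference was 0.52 in WT (SE 0.155, interval 0.20 to 0.84, limma adjusted p = 0.0143) and 0.41 in KO mice (SE 0.147, interval 0.10 to 0.71, adjusted p = 0.0407). The WT difference passed without WT heme replicate 2 (0.59, adjusted p = 0.00633), and at an unaltered 0.52 without KO heme replicate 4 (adjusted p = 0.00852) or KO heme replicate 6 (adjusted p = 0.00589). The KO difference passed without KO heme replicate 6 (0.52, adjusted p = 0.00556). Id3, a second gene of this family, did not follow Id1. It was 117.8, 166.5, 167.5, 151.7 and 196.1 in WT control mice, 102 to 224 (median 159) in WT heme, 87.1 to 264 (median 170.2) in KO control and 79.4 to 234 (median 182) in KO heme mice, in linear signal. The log2 difference of Id3 was -0.02 in WT (interval -0.56 to 0.52, limma adjusted p = 0.972) and -0.03 in KO mice (interval -0.54 to 0.49, adjusted p = 0.955), and all groups overlapped.

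**Figure D2:**
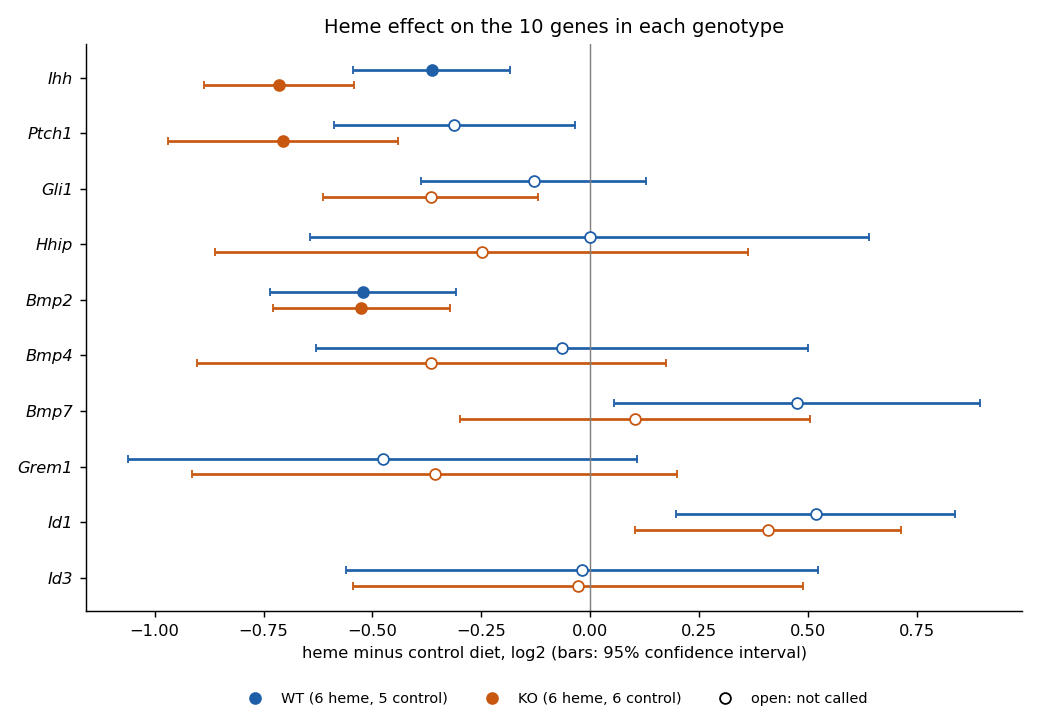
Log2 difference between heme and control diet for each gene in WT (blue) and KO mice (orange), with the 95% confidence interval of the limma fit. Filled points passed an adjusted p of 0.01. Ihh and Bmp2 are filled in both genotypes and Ptch1 in KO mice, and the intervals of Hhip, Bmp4, Grem1 and Id3 span 0.

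Between genotypes none of the 10 genes passed. On the control diet the log2 differences of KO against WT mice ran from -0.24 to 0.34, with 1 of 10 below 0 and a lowest limma adjusted p of 0.918, and 0.0531% of all genes (10 of 18820) were called. None of the 10 genes and 1080 of all genes had an unadjusted p under 0.05 there. They ran from -0.37 to 0.33 without WT control replicate 3, with 5 of 10 below 0 and a lowest limma adjusted p of 0.814. On the heme diet they ran from -0.31 to 0.18, and 0.234% of all genes (44) were called. There 2 of the 10 genes and 2289 of all genes had an unadjusted p under 0.05. These were Ihh, which was lower in KO mice by a log2 difference of -0.25 (interval -0.42 to -0.08, unadjusted p = 0.00624 and adjusted p = 0.183 in limma), and Ptch1, at -0.31 (interval -0.58 to -0.05, unadjusted p = 0.0228 and adjusted p = 0.302 in limma).

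Whether the heme effect itself differed between genotypes was tested by the interaction of diet and genotype, in which 0.0106% of all genes (2 of 18820) were called and none of the 10. An unadjusted p under 0.05 was found for 2 of the 10 and for 1271 of all genes. The effect on Ihh was more negative in KO mice by 0.35 on the log2 scale (interaction -0.35, interval -0.60 to -0.10, unadjusted p = 0.00787 and adjusted p = 0.60 in limma). The interaction of Ptch1 was -0.39 (interval -0.78 to -0.01, unadjusted p = 0.0445 and adjusted p = 0.728 in limma), and without WT control replicate 3 it was -0.27. That of Bmp2 was 0.00 (interval -0.30 to 0.29), which bounds any difference between genotypes to about the size of 0.30 on the log2 scale. Bmp7 (-0.37), Gli1 (-0.24) and Id1 (-0.11) had intervals that span 0. Over the 10 genes the interaction ran from -0.39 to 0.12 and was below 0 for 9. The WT control mice enter all 10 of these values. When WT control replicate 3 was left out the range was -0.36 to 0.25 and 6 of 10 were below 0, with Ihh at -0.36, Bmp7 at -0.17 and Gli1 at -0.08. The call of Ptch1 in KO mice and its absence in WT mice is therefore not a difference between genotypes that passed its own test.

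Within groups, several of the 10 genes varied from mouse to mouse together with the markers of fibroblasts and of endothelium. Over the 23 arrays, each taken as its deviation from its own group mean, the fibroblast score went with Bmp4 (Pearson r = 0.96, Spearman rho = 0.89), Hhip (r = 0.89, rho = 0.77), Gli1 (r = 0.75, rho = 0.71), Bmp7 (r = 0.72, rho = 0.65), Ptch1 (r = 0.68, rho = 0.58) and Grem1 (r = 0.61, rho = 0.77). The coefficient was 0.38 for Bmp2, 0.24 for Id3, 0.06 for Id1 and -0.05 for Ihh. Without WT control replicate 3 the coefficients were 0.88 for Bmp4, 0.68 for Hhip, 0.40 for Gli1, 0.53 for Bmp7, 0.46 for Ptch1 and 0.69 for Grem1, and 0.46 for Id3, 0.35 for Bmp2, 0.29 for Id1 and 0.05 for Ihh. The first 6 genes were then no longer apart from the others, since Id3 was above Gli1 and level with Ptch1. Bmp4, Grem1, Hhip and Bmp7 stayed above Id3. The endothelium score had r = 0.94 with Bmp4, 0.90 with Hhip, 0.82 with Gli1 and 0.75 with Bmp7, and 0.82, 0.68, 0.55 and 0.62 without that mouse. The most negative coefficients were with epithelial scores. The mean log2 signal of 10 surface colonocyte markers had r = -0.79 with Grem1, -0.65 with Bmp7 and -0.64 with Id1. Without KO heme replicate 6 and WT heme replicate 1 these were -0.60, -0.43 and -0.41. The epithelium score had r = -0.59 with Bmp2. Values of 1 array share its RNA and normalisation, so these are descriptions of 23 arrays and carry no test. None of the 12 fibroblast markers was called between diets in either genotype, with a median log2 difference of -0.17 in WT mice and -0.19 in the KO and single markers down to -0.92 and -0.77. In WT mice all control mice but replicate 3 had a higher fibroblast score (8.29 to 8.72) than every heme-fed mouse (7.82 to 8.14), and in KO mice the score was 8.00 to 8.59 on control and 7.49 to 8.32 on heme diet. The score was 8.21 ± 0.693 (SD, n = 5) in WT control, 7.99 ± 0.126 in WT heme, 8.31 ± 0.257 in KO control and 8.02 ± 0.299 in KO heme mice (n = 6 each).

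**Figure D3:**
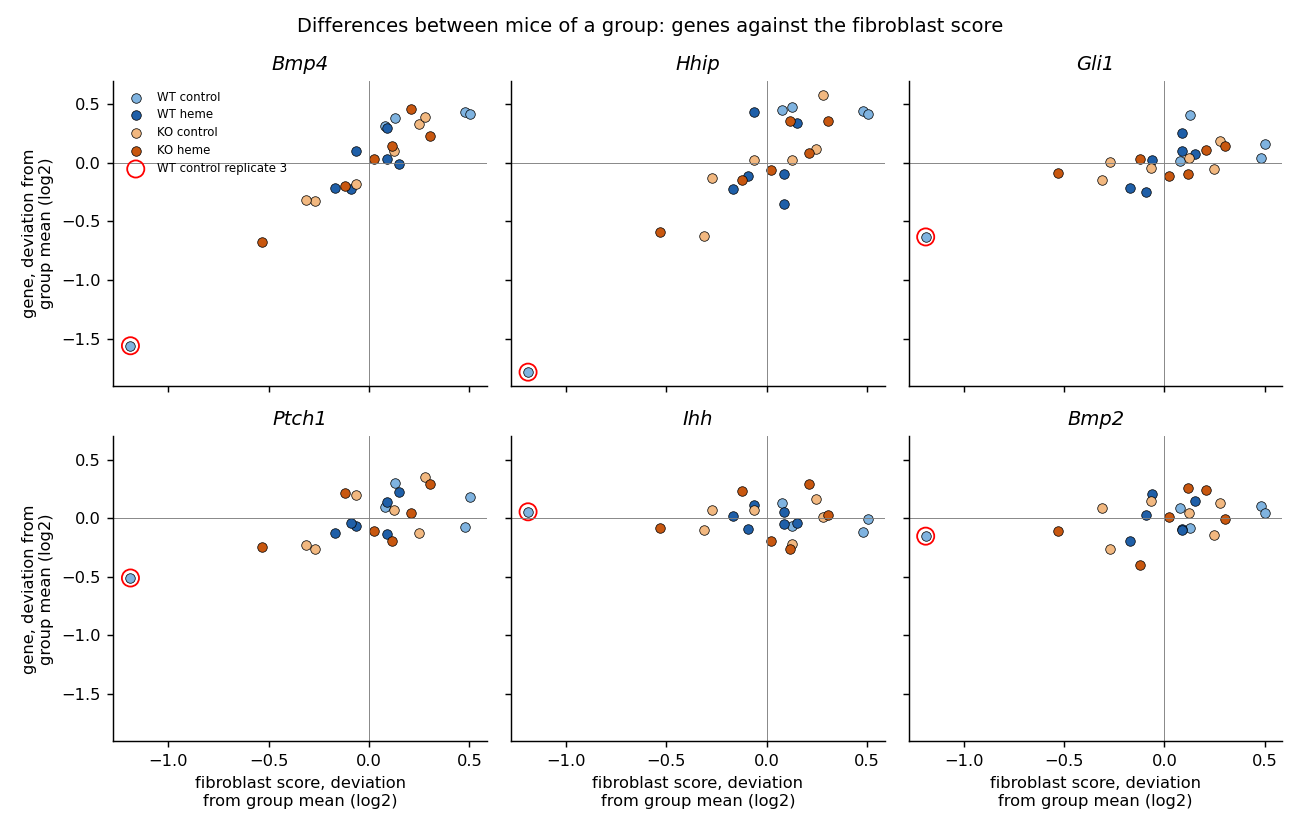
Deviation of 6 genes from their group mean (y axis, log2) against the deviation of the fibroblast score (x axis, log2), 1 point per mouse, n = 23. Bmp4 and Hhip rise with the score, with r = 0.96 and 0.89, and Ihh does not, with r = -0.05. WT control replicate 3, ringed in red, lies at the lower left for Bmp4, Hhip, Gli1 and Ptch1.

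Because of these variations the heme effect was also fitted with a tissue score in the model. With the fibroblast score as a covariate, a fit chosen after seeing the data, Ihh (-0.37, limma adjusted p = 0.00375) and Bmp2 (-0.48, adjusted p = 0.000926) stayed called in WT mice, and Bmp7 (0.63, adjusted p = 0.0027) was called higher. Bmp4 was at 0.21 and Hhip at 0.29 in WT mice, where they had been at or below 0. Ihh, Bmp2 and Ptch1 stayed called in KO mice, with Ptch1 at -0.58. All 3 WT calls were lost in the same fit without WT control replicate 3, where Ihh was at -0.33 (adjusted p = 0.0653), Bmp2 at -0.42 (adjusted p = 0.0347) and Bmp7 at 0.63 (adjusted p = 0.0343), and 3.58% of all genes were called lower in WT mice. With the smooth muscle score as a covariate none of the 10 genes was called in WT mice, where Ihh was at -0.39 (adjusted p = 0.0342) and Bmp2 at -0.46 (adjusted p = 0.0347), while all 3 calls in KO mice held. Over all genes in WT mice 2.86% were called lower and 3.43% higher in this fit, against 8.29% and 9.6% without the score, and in KO mice 8.09% were called lower. The SE in WT mice was 0.124 for Ihh and 0.146 for Bmp2 with the score and 0.0870 and 0.103 without it. In WT mice this score itself differed between the diets (8.98 ± 0.667, n = 5, against 7.92 ± 0.219, n = 6), more than in KO mice (8.31 ± 0.427 against 7.84 ± 0.233, n = 6 each). The part of tissue composition in the heme effects was not tested beyond these fits.

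**Figure D4:**
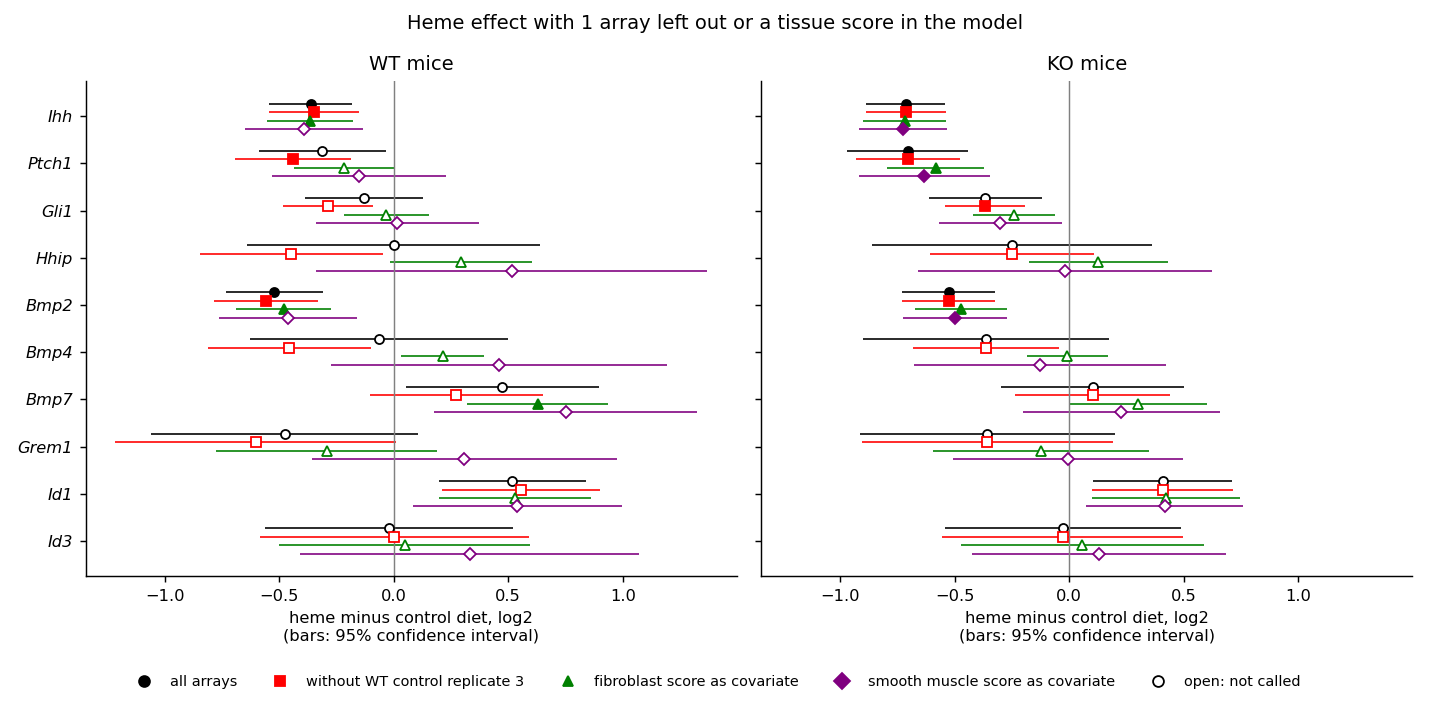
Log2 difference between heme and control diet in WT (left) and KO mice (right) with all arrays (black), without WT control replicate 3 (red), with the fibroblast score (green) and with the smooth muscle score as a covariate (purple), and 95% confidence intervals. Filled symbols were called. Ihh and Bmp2 stay below 0 in all 4 fits, whereas Hhip and Bmp4 in WT mice lie on either side of 0 depending on the fit.

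Among the 10 genes themselves, over 23 arrays, deviations from the group means went together most for Hhip and Bmp4 (r = 0.89, rho = 0.79) and for Gli1 and Bmp4 (r = 0.81, rho = 0.71). These coefficients rested in part on WT control replicate 3, without which they were 0.65 and 0.54, and the highest were then those of Bmp7 with Id1 (r = 0.72), Bmp7 with Grem1 (r = 0.72) and Bmp4 with Grem1 (r = 0.71). Ptch1 and Gli1, both hedgehog response genes, had r = 0.72 and rho = 0.66, and r = 0.56 without WT control replicate 3. Id1 and Id3 had r = 0.69 and rho = 0.71, although their heme effects in WT mice were 0.52 and -0.02. Ihh and Ptch1, ligand and receptor, had r = 0.18 and rho = 0.16, and Ihh and Bmp2, which fell on heme together, had r = -0.25. Over 14158 genes with a mean linear signal above 20, the genes whose deviations were most like those of Bmp4 were Bgn, Mmp2 and Igfbp7 (r = 0.97 each), and those most like Hhip were Dab2 (r = 0.96), Edil3 and Postn (r = 0.94 each), where Postn is in the fibroblast list. For Gli1 they were Nrp1, Prex2 (r = 0.87 each) and Acvrl1 (r = 0.86), for Ptch1 Tnfsf13b (r = 0.85), Klhl4 (r = 0.82) and Hapln1 (r = 0.81), and for Grem1 Mmp14, Spon2 (r = 0.89 each) and Limk1 (r = 0.88). For Bmp7 they were Ggt5 (r = 0.91), Tmem119 (r = 0.90) and Dennd2a (r = 0.89). The closest matches were Mtmr1 (r = 0.71), Pbrm1 (r = 0.70) and Arhgap42 (r = 0.69) for Bmp2, and Pstk (r = 0.87), Acrbp (r = 0.77) and Letm2 (r = 0.76) for Ihh. For Id1 they were Acap3 (r = 0.85), Slc45a3 (r = 0.83) and Tnfrsf18 (r = 0.82), and for Id3 Dcaf7 (r = 0.89), Sh2b2 (r = 0.88) and Ranbp6 (r = 0.86). Without WT control replicate 3 the coefficients of these same matches were 0.66 to 0.73 for Gli1, 0.74 to 0.79 for Ptch1 and 0.79 to 0.87 for Hhip. They were 0.90 to 0.93 for Bmp4, 0.83 to 0.86 for Bmp7, 0.88 to 0.90 for Grem1 and 0.68 to 0.72 for Bmp2. For Ihh they were 0.76 to 0.87, for Id1 0.83 to 0.89 and for Id3 0.87 to 0.90. The largest of so many coefficients is high by selection, and the lists are a description.

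The wider pathways were read from 9 gene lists that hold 91 measured genes, the 10 included. Of these, 17 (18.7%) were called lower and 1 (1.1%) higher on heme in WT mice, and 19 (20.9%) lower and 4 (4.40%) higher in KO mice. Over all genes 8.29% were called lower and 9.6% higher in WT mice, and 9.2% lower and 9.23% higher in KO mice. Without the 10 genes it was 15 of 81 lower (18.5%) and 1 higher in WT, and 16 lower (19.8%) and 4 higher in KO mice. The lists were chosen with earlier results of these data known, so these shares are a description and no test of the pathways. The median log2 difference of the 91 was -0.13 in WT and -0.16 in KO mice. In the interaction of diet and genotype 0 of the 91 genes were called. A call in WT or KO mice alone is therefore not a difference between genotypes that passed its own test. Without WT control replicate 3, 22 were lower and 1 higher in WT mice, and 24 lower and 4 higher in KO mice. In that fit 8.12% of all genes were called lower and 9.04% higher in WT mice, and 9.6% lower and 9.09% higher in KO mice. With the smooth muscle score as a covariate, 5 were lower and 1 higher in WT, and 16 lower and 5 higher in KO mice, in a fit where 2.86% of all genes were called lower in WT and 8.09% in KO mice.

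**Figure D5:**
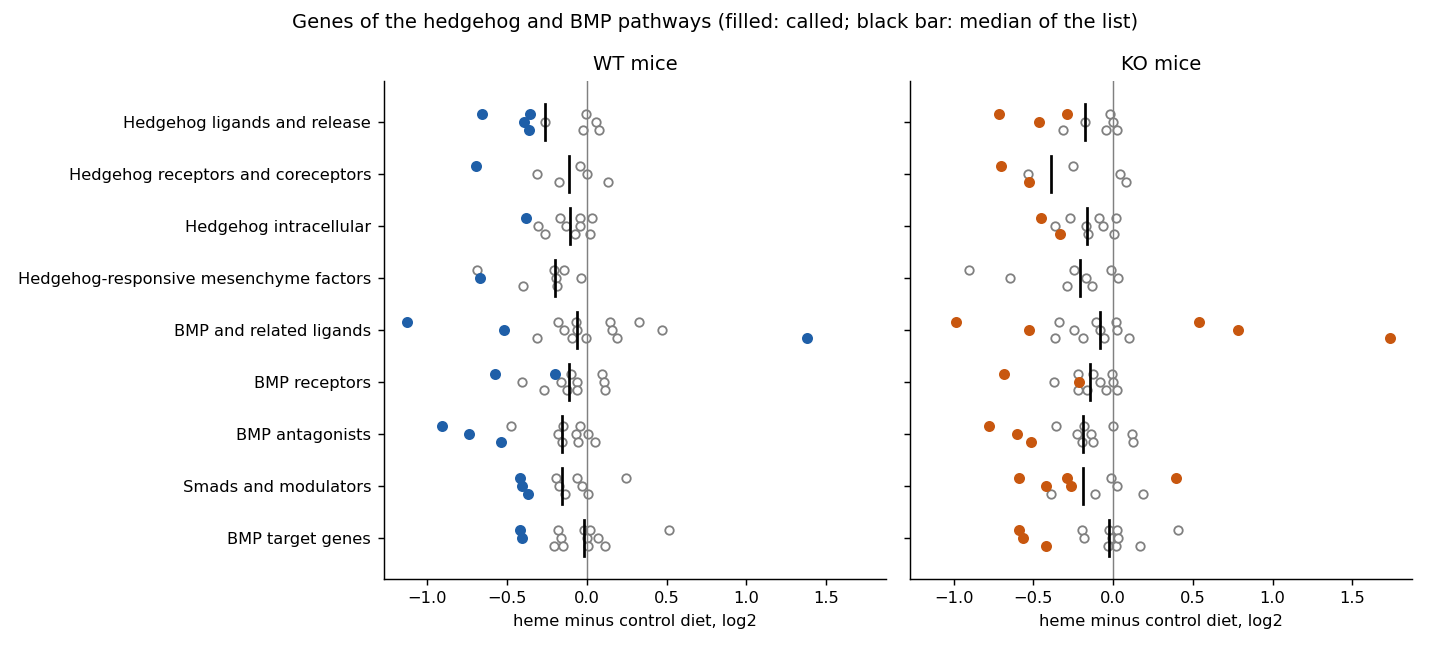
Log2 difference between heme and control diet for each measured gene of the 9 lists (1 point per gene, vertical offsets for legibility) in WT (left) and KO mice (right), with the median of each list as a black bar. Filled points were called. The point farthest to the right in both panels is Bmp8b, at 1.38 in WT and 1.73 in KO mice.

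On the hedgehog side most calls were in the release and reception of ligand. Of 9 genes for ligands and their release, 4 fell in WT and 3 in KO mice, beside 8.29% and 9.2% of all genes. Disp1 and Disp2, related to the Dispatched transporter that frees lipid-bound hedgehog from the cell, fell by log2 differences of -0.35 and -0.40 in WT (limma adjusted p = 8.06e-05 and 0.000414) and -0.47 and -0.29 in KO mice (adjusted p = 2.05e-06 and 0.00399). Scube2, a secreted protein that helps this release, fell in WT mice (-0.66, adjusted p = 0.00102) and was at -0.17 in KO mice (adjusted p = 0.370). Of 6 measured receptors and coreceptors, Gas1 fell in WT mice (-0.69, adjusted p = 0.00293) and was at -0.53 in KO mice (adjusted p = 0.0134), and Boc fell in KO mice (-0.53, adjusted p = 0.000373) and was at -0.18 in WT mice (adjusted p = 0.244). Smo, the transducer, was at 0.13 in WT (adjusted p = 0.203) and 0.08 in KO mice (adjusted p = 0.439). Of 10 intracellular genes, Spop, a ubiquitin ligase adaptor that acts on Gli proteins, fell in both genotypes (-0.38 and -0.45, adjusted p = 6.86e-05 and 6.22e-06), and Evc, a ciliary protein, fell in KO mice (-0.33, adjusted p = 0.00868) and was at -0.31 in WT mice (adjusted p = 0.0204). Evc was called in WT mice too without WT control replicate 3 (-0.40, adjusted p = 0.0020), and Gas1 was then called in KO mice (-0.53, adjusted p = 0.00929). Of 8 transcription factors of the hedgehog-responsive mesenchyme, Hand2 fell in WT mice (-0.67, adjusted p = 0.00422) and was at -0.29 in KO mice (adjusted p = 0.193), and no other was called with all arrays. Without WT control replicate 3 Osr1 was also called lower in WT mice and Tcf21 in KO mice. The WT calls of Gas1 and Hand2 were lost without WT control replicate 1 (-0.60 and -0.59, adjusted p = 0.0132 and 0.0177) and WT control replicate 2 (-0.55 and -0.47, adjusted p = 0.0139 and 0.0147), and that of Hand2 also without WT heme replicate 5 (-0.64, adjusted p = 0.0112). The KO call of Evc was lost on leaving out any of 12 of the 23 arrays, with an adjusted p of up to 0.0249, and that of Disp2 for 4 arrays (KO control replicates 5 and 6 and KO heme replicates 2 and 5), with an adjusted p of up to 0.0129. With the smooth muscle score as a covariate Disp1 was the only hedgehog gene called in WT mice. In that fit Ihh was at -0.39 and Spop at -0.33 (adjusted p = 0.0126), whereas Disp2 was at -0.21, Scube2 at -0.28, Hand2 at -0.14 and Gas1 at -0.06.

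On the BMP side the largest changes were in ligands. The list of BMP and related ligands had 15 measured genes, including Bmp1, which is a protease and not a ligand. Bmp8b rose from a linear signal of 42.7 ± 2.97 (SD, n = 5) to 114 ± 29.3 (n = 6) in WT mice (log2 1.38, limma adjusted p = 2.53e-07) and from 43.3 ± 3.50 to 146 ± 29.2 (n = 6 each) in KO mice (log2 1.73, adjusted p = 3.42e-09). Bmp3, which acts against other BMPs, fell from 755 ± 127 (SD, n = 5) to 349 ± 82.9 (n = 6) in WT mice (log2 -1.13, adjusted p = 5.08e-06 in limma) and from 647 ± 76.4 to 328 ± 54.9 (n = 6 each) in KO mice (log2 -0.99, adjusted p = 1.32e-05). Both genes were called whichever single array was left out and with either tissue score as a covariate. Inhba and Inhbb encode activin subunits. Inhba rose in KO mice (0.54, adjusted p = 0.00534) and was at 0.33 in WT mice (adjusted p = 0.0998), and its KO call was lost without any of 5 arrays (KO control replicates 1, 4 and 6 and KO heme replicates 2 and 4), with an adjusted p of up to 0.018. Inhbb rose in KO mice from 24.9 ± 2.79 to 44.0 ± 12.2 (n = 6 each, log2 0.78, limma adjusted p = 5.45e-05) and had 24.1 ± 1.92 (n = 5) and 26.6 ± 2.16 (n = 6) on control and heme diet in WT mice (log2 0.14, adjusted p = 0.475). It was the only gene of the 91 called between genotypes, higher in KO than in WT mice on heme by 0.69 on the log2 scale (limma adjusted p = 0.0067).

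Receptors, antagonists and intracellular parts of the BMP pathway were lower where they were called, with 1 exception. Of 12 receptors and coreceptors, Rgmb, a BMP coreceptor, fell in both genotypes (-0.58 and -0.68, limma adjusted p = 9.65e-06 and 5.41e-07), as did the receptor kinase Acvr1 (-0.20 and -0.21, adjusted p = 0.00831 and 0.00355). The calls of Acvr1 were lost on leaving out any of 9 arrays in WT and any of 3 arrays in KO mice, with adjusted p of up to 0.0287 and 0.0124. Of 12 measured antagonists, Nbl1 (-0.91 in WT and -0.78 in KO mice, adjusted p = 2.19e-06 and 7.04e-06), Chrdl1 (-0.74 and -0.60, adjusted p = 0.00116 and 0.00419) and Bmper (-0.54 and -0.51, adjusted p = 0.00133 and 0.00118) fell in both. The KO call of Chrdl1 was lost without KO control replicate 2, KO control replicate 5 or KO heme replicate 6, with an adjusted p of up to 0.014. Of 10 Smads and modulators, Smad5, which carries the signal (-0.37 and -0.29, adjusted p = 0.000162 and 0.000962), Smad9 (-0.42 and -0.59, adjusted p = 0.000332 and 4.48e-06) and the inhibitory Smad7 (-0.41 and -0.42, adjusted p = 0.000136 and 5.37e-05) fell in both genotypes. Smad1 fell in KO mice (-0.27, adjusted p = 0.000795) and was at -0.19 in WT mice (adjusted p = 0.0145), and Smurf1, a ubiquitin ligase for these Smads, rose in KO mice (0.39, adjusted p = 0.000502) and was at 0.25 in WT mice (adjusted p = 0.0256). Of 13 BMP response genes, Smad7 and Smad9 fell in both genotypes, Atoh8 fell in KO mice (-0.56, adjusted p = 0.000968) and was at -0.21 in WT mice (adjusted p = 0.249), and none rose. In WT mice with the smooth muscle score as a covariate, the calls of Rgmb, Nbl1 and Bmper held. Those of Acvr1, Smad7, Smad5, Smad9 and Chrdl1 were lost, with Acvr1 at -0.19 (adjusted p = 0.113), Smad7 at -0.39 (adjusted p = 0.0112), Smad5 at -0.28, Smad9 at -0.25 and Chrdl1 at -0.18.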

How the data were processed

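The authors deposited log2 signals for the probe sets of an Affymetrix mouse gene array, made by Robust Multi-array Average (RMA, with no version given in the sources used here) over all arrays. Quantile normalisation in this step forces a common distribution, and array medians were 5.80 to 5.90. The values were used as given, and linear signals are their powers of base 2. The study describes reorganised probe sets, whereas the rows carry the manufacturer's, so the probes behind a gene can differ. The labels and the study's text also name different RNA columns and labelling kits. Arrays have no read depth, and their number limits the precision. Columns were matched to samples by title, with 0 left unmatched.

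Probe sets with 1 symbol (21218) were kept, 21185 of them matched by Entrez number to RefSeq (GRCm38.p6), and 1881 with several symbols and 12457 with none were left out. The brightest was taken for 1386 of 18820 genes with more than 1. limma 3.58.1 (R 4.3.3) fitted the 4 groups in 1 model, with Benjamini-Hochberg adjustment over all genes. A call needed an adjusted p under 0.01 and a mean linear signal above 20, as in the study, which does not name its tool. Intervals are 95% from the same fit. All 10 genes are named, as are the called genes of each pathway list, up to 6 a list, and the 3 genes most like each of the 10. Genes and lists were chosen with earlier results of these data known. Some genes of the lists are not reported here. Marker scores are mean log2 values. Alternatives changed the threshold, filter, centring, samples, replicate block, array weights, variance prior, probe sets and test, and added tissue scores. The fits were tested on simulated data. Python 3.11.15, numpy 2.4.6, scipy 1.17.1, pandas 2.3.3 and matplotlib 3.10.9 were used.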

Additional observations from a re-analysis of the deposited data

Results flagged for a closer look

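In the WT control group, 1 mouse, replicate 3, was far below the other 4 for 3 of the 10 genes. Its gap to the nearest mouse was 0.976 of the group's range for Hhip, 0.942 for Bmp4 and 0.831 for Bmp7. Of 40 groups examined in this way 3 stood out, all through this mouse, and chance alone picks out about 1 in 20 groups. The heme effect on 2 of the 10 genes differed between genotypes before adjustment for the number of genes. For Ihh the interaction was -0.35 on the log2 scale (limma adjusted p = 0.60). For Ptch1 it was -0.39 (limma adjusted p = 0.728). Neither passed the adjustment over all 18820 genes.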

How the results depend on the processing

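Over the fits other than leaving out arrays, 881 single values stayed on their side of 0 and of the threshold, 18 newly passed it, 55 no longer passed it and 28 changed sign, and of 64 counts of called genes 3 moved by over 1.5 times. The count of the 10 genes called in WT mice was 0 with the smooth muscle score, 0 with the fibroblast score (added after seeing the data) and no WT control replicate 3, where Ihh was at -0.33 (adjusted p = 0.0653) and Bmp2 at -0.42 (adjusted p = 0.0347), and 1 to 3 on leaving out single arrays. The KO count was 5 at an adjusted p under 0.05, with Gli1 and Id1. At this looser threshold 5235 of all 18820 genes were called in KO mice, against 3469 at the threshold used elsewhere.

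Sign changes in WT mice were, on the log2 scale, 0.0157 for Gli1, 0.51 for Hhip, 0.46 for Bmp4, 0.31 for Grem1 and 0.33 for Id3 with the smooth muscle score, 0.29, 0.21 and 0.0472 for Hhip, Bmp4 and Id3 with the fibroblast score, and 0.0414, 0.11, 0.17 and 0.49 for Hhip, Bmp4, Grem1 and Id3 when WT control replicate 3 was also left out. Centred arrays gave 0.0279 for Hhip and 0.00979 for Id3, array weights 0.0234 for Id3, and the methods' two-way test 1.65 units of linear signal for Id3. In KO mice the fibroblast score gave 0.13 for Hhip and 0.0576 for Id3, with WT control replicate 3 left out 0.0224, 0.0698 and 0.24 for Hhip, Grem1 and Id3, the smooth muscle score 0.13 for Id3, and centred arrays 0.0161 for Id3. The interaction of Bmp2 was 0.0106 with centred arrays, 0.0437 with array weights and 0.00737 with the fibroblast score. The causes were not tested.

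Leaving out single arrays gave -0.46 to 0.0431 for Bmp4, -0.45 to 0.12 for Hhip and -0.13 to 0.10 for Id3 in WT mice, -0.0063 to 0.22 for Bmp7 and -0.21 to 0.18 for Id3 in KO mice, -0.0461 to 0.16 for Ptch1 in KO against WT on control diet, and -0.0569 to 0.0757 for Bmp2 and -0.21 to 0.00581 for Id1 in the interaction.

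Replicate numbers are shared between groups but nothing says they pair mice. Deviations of same-numbered arrays had r from -0.314 to 0.337 (median 0.0799, 14 of 33 pairs over 0.1), and an array was closest to its own number in 14 of 66 comparisons with another group. With the replicate block, Id1 was at 0.58 in WT mice (adjusted p = 0.0061) and passed, as it did with centred arrays (adjusted p = 0.00663) and array weights (adjusted p = 0.00639), and Hhip was at 0.0427 and Id3 at 0.0274, while the block changed no call of the other 9 genes. Among the other named genes the block added the calls of Smad1 in WT and Gas1 in KO mice and lost those of Acvr1 in WT and Evc in KO mice. Precision is limited by 5 or 6 mice a group.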
